A study of Mus musculus with 14 samples.

Results

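TRIM71 is an RNA-binding protein of the TRIM-NHL family, the mammalian counterpart of worm LIN-41. It is made in early embryos and embryonic stem cells (ESCs), its own mRNA is a target of the let-7 microRNA, and it is known to repress mRNAs through its NHL domain, which reads short RNA hairpins with a 3-base loop. The transcripts described here are the 249 RNAs most strongly recovered with FLAG-tagged TRIM71 from mouse ESCs. They were chosen from 14054 listed transcripts by 2 values of the pulldown itself: an input above 2 FPKM (fragments per kilobase of transcript, scaled to a fixed number of fragments per library), which 9651 transcripts passed, and a fold of enrichment above 5, meaning the authors' scaled immunoprecipitate (IP) value divided by the scaled input value. The members were therefore 2.58% of the transcripts that passed the input cutoff, and their input, IP and fold values are a description of how they were chosen and carry no test.

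The ESCs came from the C57BL/6(F) x 129/sv(M) background, with a developmental stage given as 3.5 days. For the pulldown, ESCs overexpressing 3XFLAG-Trim71 in 2i + LIF medium (N2B27 with 1 µM of the MEK inhibitor PD0325901, 3 µM of the GSK3 inhibitor CHIR99021 and 1000 units per ml of leukemia inhibitory factor, LIF) were crosslinked with UV light, and 1/40 of the lysate was kept as input before the FLAG IP. RNA-seq was made from wild-type and Trincr1-ko ESCs, the knockout made with a pair of guides flanking exons 2 to 4 of the long noncoding RNA Gm2694 (also named Trincr1), each in 2i + LIF and in PD + LIF (24 h in 2i + LIF, then 4 days with PD0325901 and LIF but no CHIR99021), with 2 samples in each of the 4 groups. All 8 RNA-seq samples therefore shared PD0325901 and LIF. The labels do not say which or how many knockout clones were sequenced, whether replicates were separate cultures, or which ESCs gave the input, so p-values measure only the spread between these samples.

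The pulldown table holds 1 input value and 1 IP value per transcript although 2 samples of each were labelled, so no spread can be given for a fold. Input RNA was selected on poly-T beads and IP RNA was turned into cDNA directly, so a fold also compares both ways of making a library. By the paper's methods, the authors left out pulldown reads that fell on transcripts without poly(A). IP with an empty FLAG vector was not analysed here. The IP value was 0 for 46.41% of the transcripts above the input cutoff, and the authors' scaling multiplied the IP values by 2.2459. IP values are given below as FPKM before that scaling, while folds include it.

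Trim71 mRNA itself stood at 133.4 FPKM in the input, 4.05 times the wild-type RNA-seq mean in 2i + LIF. Its fold was 0.49, so it was not among the enriched transcripts. In RNA-seq, Trim71 was at 34.0 and 31.8 FPKM in wild type and 34.7 and 33.6 FPKM in knockout in 2i + LIF, and at 30.8 and 31.5 FPKM in wild type and 37.3 and 37.7 FPKM in knockout in PD + LIF. Knockout was higher in PD + LIF by 0.26 ± 0.05 (SE) of log2(FPKM + 1) (limma Benjamini-Hochberg adjusted p 0.0259). The difference in 2i + LIF, 0.05 ± 0.05, did not pass the test (limma adjusted p 0.74). RNA-seq depth came to 10.3 to 14.1 M (mega) fragments per sample, estimated from the smallest steps of the values. ESC markers were high in every sample (7 of 7 listed genes, summed to 1770 to 1810 FPKM in 2i + LIF, 1110 to 1150 FPKM in wild type in PD + LIF and 915 to 947 FPKM in knockout in PD + LIF). Sox2 did not share this fall in wild type, at 149 and 144 FPKM in 2i + LIF and 185 and 173 FPKM in PD + LIF. Markers of endoderm, trophoblast and fibroblasts summed to at most 6.17 FPKM, being highest for fibroblasts in knockout in PD + LIF (4.72 to 6.17 FPKM). The 3 epiblast and mesoderm markers (Fgf5, T and Otx2) summed to 3.66 to 5.18 FPKM in 2i + LIF. In PD + LIF they summed to 41.2 to 45.3 FPKM in wild type and 51.9 to 53.8 FPKM in knockout, nearly all of it Otx2. T went the other way, from 2.03 and 1.61 FPKM in 2i + LIF to 0.0389 and 0.186 FPKM in PD + LIF in wild type. In knockout T went from 2.49 and 1.98 FPKM to 0.495 and 0.326 FPKM. The neural markers Pax6 and Sox1 summed to 0.953 to 1.65 FPKM in 2i + LIF and to 13.9 to 15.5 FPKM and 22.1 to 23.0 FPKM in PD + LIF.

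Gm2694, the targeted long intergenic noncoding RNA, is the most enriched noncoding member, and its first exons are shown because the knockout was aimed at this transcript. It lies on the plus strand of chromosome 8 (chr8:89996711-90049453, build NCBIM37, also called mm9). Exons 1, 2 and 3 of the annotated transcript Gm2694-201 have 149, 78 and 132 bases, at chr8:89996711-89996859, chr8:90045635-90045712 and chr8:90048195-90048326. They are printed whole in lower case, 5′ to 3′.
Gm2694 exon 1: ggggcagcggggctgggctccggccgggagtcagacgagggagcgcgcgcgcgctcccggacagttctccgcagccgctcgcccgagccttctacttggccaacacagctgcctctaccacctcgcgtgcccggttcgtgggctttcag
Gm2694 exon 2: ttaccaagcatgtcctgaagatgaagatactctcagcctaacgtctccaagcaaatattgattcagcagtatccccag
Gm2694 exon 3: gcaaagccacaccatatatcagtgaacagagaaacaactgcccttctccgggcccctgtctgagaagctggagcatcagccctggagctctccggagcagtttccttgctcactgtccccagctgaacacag

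Many members are pseudogenes, gene copies that sit elsewhere in the genome and differ from a highly expressed coding gene at only a few bases. The stretch below shows such a pair, with the 7 differing bases in capitals. It sets 60 bases of Rps19-ps1 (chr14:53833764-53833823, plus strand) against the matching 60 bases of Rps19 (chr7:25673929-25673988, plus strand), the gene of a small-subunit ribosomal protein. Among coding stretches of this length without a gap and within 1 exon, it holds the most differences. Over 440 aligned bases the pair is 97.27% identical.
Rps19-ps1: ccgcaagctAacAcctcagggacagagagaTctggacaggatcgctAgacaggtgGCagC
Rps19: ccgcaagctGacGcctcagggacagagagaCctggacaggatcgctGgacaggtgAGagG

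Because hairpins with a 3-base loop are the element that TRIM71 is known to read, the longest annotated transcript of each gene was searched on its own strand for perfect hairpins of a 7-base stem and a 3-base loop (17 bases, any sequence). The examples are from strongly enriched members, with the loop in capitals: Sufu at chr19:46527780-46527796 in its coding sequence and at chr19:46562431-46562447 in its untranslated part (both plus strand), Camsap1 at chr2:25794179-25794195 (minus strand, coding) and Vangl2 at chr1:173934809-173934825 (minus strand, coding).
Sufu, coding: acagcctCGGaggctgt
Sufu, untranslated: gcctggtCTGaccaggc
Camsap1: cattgagAAGctcaatg
Vangl2: aagaaggTGCccttctt
Such hairpins were not more frequent among the enriched transcripts. At least 1 was found in 59 of 249 members (23.7%) and in 29.2% of the other transcripts above the input cutoff, or 0.113 against 0.121 per kb. In the 93 members with a fold above 10 the share was 29.0% and the density 0.163 per kb. The densities count every start position, so a single run of A and T can be counted repeatedly, as in Fbrsl1 and Ankrd52 of this group. The shares of transcripts are not affected by this. Gm2694 held none in its longest transcript. The search reads letters only and says nothing of folding or binding.

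The folds ran from 5.025 to 200.5 with a median of 8.08, and 93 members exceeded a fold of 10, 40 a fold of 20 and 10 a fold of 50. The number of members depends on the authors' scaling, and scaling both libraries to the same mean would give 422. The paper's methods describe values set relative to the average of all transcripts. Over the listed transcripts, equal means would multiply IP values by 3.3139, while the scaled values use 2.2459. What set the authors' factor is not known from the values. The cutoff fell in a continuous range of values. Gss at 5.025, Supv3l1 at 5.027 and Cry2 at 5.028 were just above it, and Rbmxl2 at 5.0, Sgpp1 at 4.967 and BC019943 at 4.964 were just below. Members took 29.4% of the summed IP FPKM but 0.965% of the summed input, and 15.1% of the IP sum with the top transcript, Lars2, left out.

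As a group, members were less abundant than the other transcripts above the input cutoff. Their median input was 7.0 FPKM, against 12.6 FPKM for the other 9402 transcripts above the cutoff. Of transcripts with an input of 2 to 5 FPKM, 91 of 2291 were members (3.97%). Of those above 100 FPKM, 6 of 810 were (0.741%), namely Lars2, Ubl5, Hspa5, Rps10, the Rpl12 copy Gm10275 and Ndufv3. Input is part of the rule, so this gradient is not independent of the selection. RNA-seq, which the rule did not use, gave a median level over the 8 samples of 9.5 FPKM in the 223 members tested. For the other transcripts above the input cutoff it gave 16.4 FPKM, and for all 15430 genes tested 6.69 FPKM. How much of the gradient the rule itself made was not tested.

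**Figure D1:**
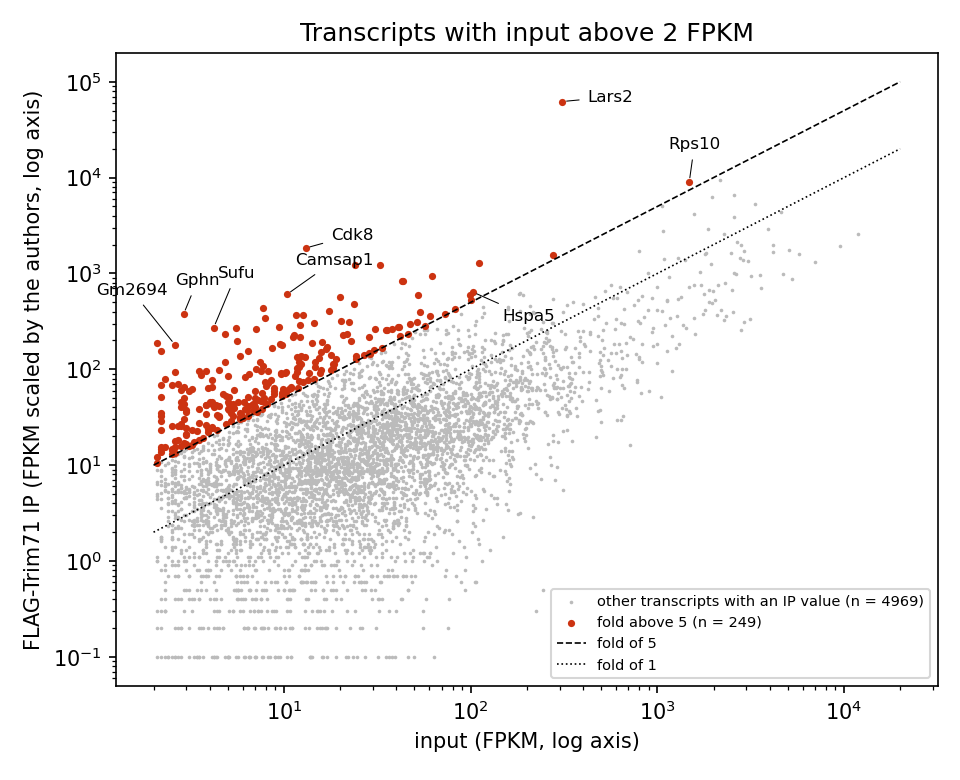
Input (x axis, FPKM, log axis) against scaled FLAG-Trim71 IP (y axis, FPKM scaled by the authors, log axis) for transcripts with an input above 2 FPKM; each point is 1 transcript, and transcripts with an IP value of 0 cannot be drawn on a log axis. The 249 members (red) lie above the dashed line of a fold of 5, mostly at the lower inputs, with Lars2 far above the rest.

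Lars2, the mitochondrial leucyl-tRNA synthetase (chr9:123276058-123371782, plus strand), had the highest fold. It went from 310.3 FPKM in the input to 27705.5 FPKM in the IP, a fold of 200.5. By RNA-seq it stood at 70.3 to 112 FPKM over the 8 samples, and its repeated 31-base words were also found in an intron of Gphn, in an intron of Kpna1 and in an exon of the noncoding RNA Gm15564. Gm15564 itself went from 0.1 FPKM in the input to 114.3 FPKM in the IP, with an input below the cutoff. Gphn, the gephyrin gene, whose protein anchors inhibitory neurotransmitter receptors (chr12:79327642-79785754, plus strand), had the third highest fold, at 130.6 (input 2.9 FPKM, IP 168.7 FPKM). Whether reads from the shared stretch set any of these values was not tested.

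Cdk8, the kinase of the Mediator complex (chr5:147042806-147114450, plus strand), had a fold of 140.8, from 13.1 to 821.1 FPKM. In RNA-seq it was even across the groups, at 21.0 and 21.9 FPKM in wild type and 20.6 and 19.6 FPKM in knockout in 2i + LIF, and at 24.3 and 25.6 FPKM and at 24.7 and 21.4 FPKM in PD + LIF. Of the 31-base words in its exons, 32.8% occurred more than once in the genome (called repeated here). Among the other members with folds near or above 50, Camsap1, whose protein binds microtubule minus ends, rose from 10.4 to 270.6 FPKM (fold 58.4, 36.5% repeated). Dusp7, a phosphatase of ERK, rose from 4.8 to 104.5 FPKM (fold 48.9, 19.4% repeated), and Phyhd1, a dioxygenase-domain protein, from 7.7 to 195.2 FPKM (fold 56.9, 3.00% repeated).

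Sufu, which holds GLI transcription factors inactive in the Hedgehog pathway (chr19:46471386-46563294, plus strand), had a fold of 64.9, from 4.2 to 121.3 FPKM, with 0.215% of its exonic words repeated. Gfra4, a co-receptor for a GDNF-family ligand, had a fold of 70.7, from 2.2 to 69.3 FPKM, with no repeated stretch. Its RNA-seq level was 0.182 to 1.02 FPKM over the 8 samples, below its input. For 2610528E23Rik, with a fold of 50.9, the symbol had no match in the RNA-seq table.

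Gm2694 had a fold of 69.7, from 2.6 FPKM in the input to 80.6 FPKM in the IP. The other long noncoding members were enriched less. 5430416N02Rik had a fold of 14, 9930104L06Rik of 10.6, Gm17586 of 6.74 and the snoRNA host gene Snhg9 of 5.58. By annotation, 4 of 63 intergenic noncoding transcripts above the cutoff were members (6.35%), against 213 of 9192 protein-coding transcripts (2.32%) and 31 of 319 pseudogenes (9.72%).

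Of the annotated gene types, pseudogenes had the highest share of members (9.72%). By annotation or name 35 members were pseudogenes, and 34 of them had a closely matching spliced coding gene, with 95.6% to 100% identical bases (median 98.7%). For 27 of the 34 the coding gene encodes a ribosomal protein, and since 25 distinct coding genes account for all 34, several members share a parent sequence and are not independent of each other. Rps19-ps1 and Rps19-ps2 have identical longest transcripts of 456 bases, and both were listed at 369.7 FPKM in the IP, with inputs of 43.2 and 42.8 FPKM.

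All 34 pseudogenes had a higher fold than their coding gene. The coding gene was itself above the cutoff of 5 in 2 pairs, both with Rps10, and in all others the rule fixed this order. Of the coding genes, 14 of 25 had a fold of 1 or lower. Rpl13-ps3, a copy 98.4% identical to the large-subunit gene Rpl13, went from 2.1 to 83.0 FPKM (fold 88.8) while Rpl13 went from 2866.7 to 618.1 FPKM (fold 0.484). Gm11425, a copy of the large-subunit gene Rpl12, had a fold of 49.3 and Rpl12 a fold of 4.43. Ftl2, a copy of the ferritin light chain gene, had a fold of 24.5 and Ftl1 itself a fold of 0.208. Gm14270, 99.64% identical to the anti-apoptotic gene Hax1, had a fold of 8.02 and Hax1 a fold of 0.0649. The closest fold was for Rpl27-ps2 at 5.21, with Rpl27 at 4.75. Rps10, a small-subunit ribosomal protein gene (input 1482.9 FPKM, IP 4020.3 FPKM, fold 6.09), was the only parent gene that was itself a member, together with its copies Rps10-ps1 (fold 23.6) and Gm8017 (fold 15.2).

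The higher fold of a copy came with a very small input. The median input of a pseudogene was 0.693% of that of its coding gene, and its median IP value was 7.66%. Related copies were not uniformly enriched: Rps19-ps4, Rpl21-ps15, Rpl36a-ps1 and Rpl38-ps1 had inputs of 2.4, 2.3, 3.6 and 21.8 FPKM and an IP value of 0. How the authors' aligner shared reads between such copies and their coding genes is not known from the values, so levels and folds of the pseudogenes are uncertain.

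**Figure D2:**
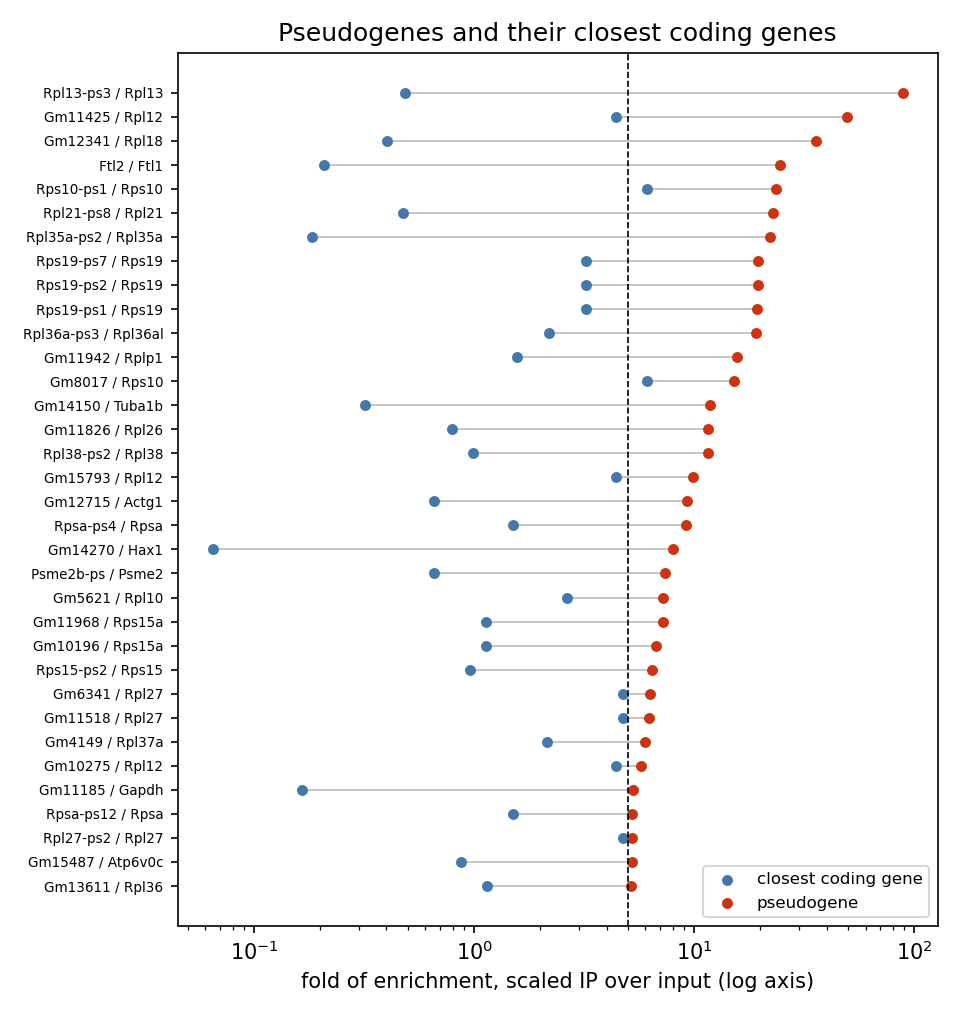
Fold of enrichment (x axis, scaled IP over input, log axis) of 34 enriched pseudogenes (red) and of the closest coding gene of each (blue), 1 pair per line, sorted by the pseudogene's fold; the dashed line marks a fold of 5. Every pseudogene lies to the right of its coding gene, which the cutoff fixed wherever the coding gene is below 5, from Rpl27-ps2 (5.21 against 4.75) to Rpl13-ps3 (88.8 against 0.484).

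Sequence shared with other places in the genome was more common among the members, by a margin that was smaller without the pseudogenes. More than 50% of the exonic bases were repeated in 39 members (15.7%) against 6.71% of the other transcripts, and a repeated stretch of at least 100 bases was found in 102 members (41.0%) against 29.4%. With pseudogenes left out of both sides, the former shares were 4.59% and 4.38%, and the latter 33.0% and 27.6%. Members made from a single exon were 30 (12%) against 4.32%. Median exonic length was 3991 bases in members and 3426 bases in the others, GC content 52.39% and 50.5%, and an exon on the opposite strand overlapped 23.3% and 22.9%. These shares describe genes chosen by the pulldown and carry no test.

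The input can be set beside the RNA-seq level of wild-type ESCs in 2i + LIF. Of 230 members matched by symbol, 228 had a level above 0, and 155 of these kept a value above 5 when the scaled IP was divided by that level in place of the input. Of 8744 other transcripts with a level above 0, 136 then exceeded 5. The IP value that chose the members is also in this ratio, so the gap between members and others is largely a property of the selection. Lars2 then stood at 763 times, Gphn at 135, Cdk8 at 85.8, Camsap1 at 56.4, Sufu at 26.5 and Gm2694 at 23.9 times its RNA-seq level. The median difference of log2(FPKM + 1), RNA-seq minus input, was 0.17 in the members and 0.08 in 8784 other transcripts, and the rank correlation of input and RNA-seq level was 0.61 and 0.79. Those correlations are across genes of the same libraries and are descriptions. Pseudogenes stood apart in this comparison too, since the input was above the RNA-seq level for 27 of 30 with a level above 0, by a median of 5.1 times (Rps19-ps1 at 12.6 times). A fragment on a pseudogene of 500 bases was worth 0.254 to 0.346 FPKM in these samples, so several of these levels rest on a few fragments.

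**Figure D3:**
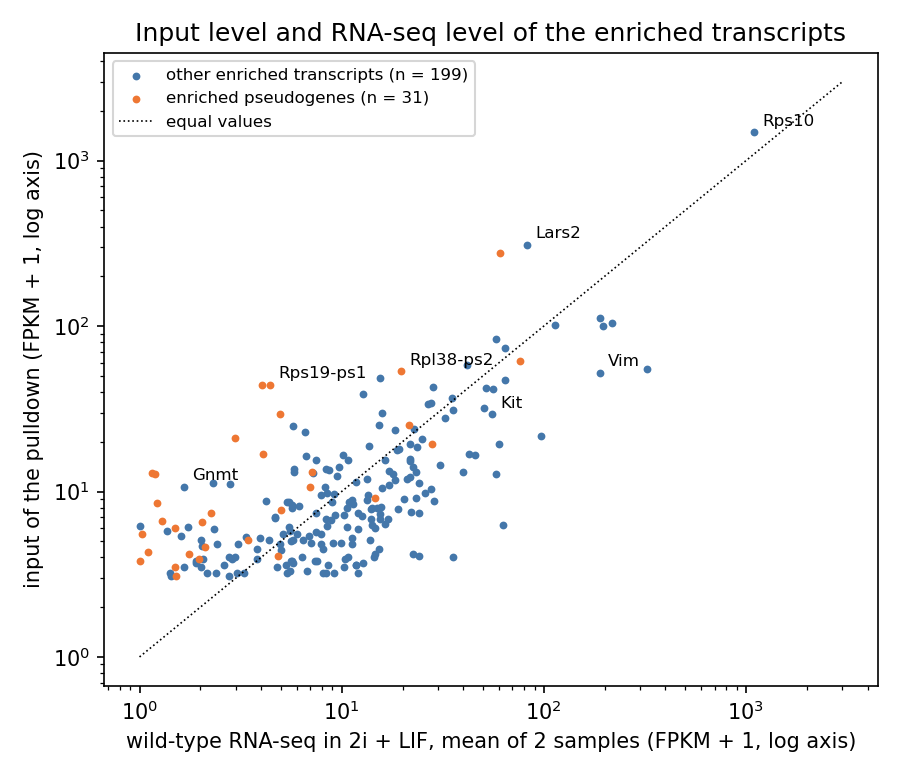
Mean RNA-seq level of wild-type ESCs in 2i + LIF (x axis, FPKM + 1, log axis, 2 samples) against the input of the pulldown (y axis, FPKM + 1, log axis) for the 230 members matched by symbol; orange points are pseudogenes and the dotted line marks equal values. Most pseudogenes lie above the line, with Rps19-ps1 at 43.2 FPKM in the input against a mean of 3.42 FPKM in RNA-seq.

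By function the members were diverse. The functional lists were drawn up from the members themselves with their folds known, hold 151 of them and leave 98 in none, so a list's size is no result. The largest held chromatin and transcription factors (27 members, median fold 7.34). It included Cdk8, Jarid2 (fold 8.69) and Aebp2 (fold 17.7), both partners of the Polycomb complex PRC2, the histone demethylases Kdm1b (fold 14.8) and Kdm4b (fold 6.69), the elongation factors Aff4 (fold 19.1) and Aff1 (fold 5.67) and the remodelers Chd1 (fold 7.03) and Ep400 (fold 6.4). Regulators of small GTPases, cytoskeleton and membrane traffic came next (26 members, median fold 7.21), among them Camsap1, the exchange factors Mcf2l (fold 34.2) and Arhgef16 (fold 25.9), the non-muscle myosin Myh9 (fold 6.71) and the intermediate filament gene Vim (fold 6.07).

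Mitochondrial and metabolic genes were 22 members with a median fold of 6.52, from Lars2 and the fatty acid importer Cpt2 (fold 28.9) down to Gss, which makes glutathione. Solute carriers, channels and transporters were 15 members (median fold 9.52), led by the calcium channel subunit Cacnb1 (fold 25.3) and the ammonium transporter Rhbg (fold 23.4). RNA processing genes were 10 members (median fold 8.24), led by Mettl3 (fold 23.1), the catalytic subunit of the m6A methyltransferase, with the splicing protein gene Snrpf (fold 11) and the deadenylase Cnot7 (fold 5.83).

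Signaling lists were short. The Hedgehog, planar polarity, Wnt and Notch list held 6 members with a median fold of 21.5: Sufu, the core polarity protein Vangl2 (fold 43.2), the kinase Mink1 (fold 36.7), the Notch ligand ubiquitin ligase Mib1 (fold 6.23), the Notch glycosyltransferase Rfng (fold 5.41) and the Wnt transducer Dvl3 (fold 5.12). Receptor tyrosine kinase and MAPK genes were 8 members (median fold 8.87), with Gfra4, Dusp7, the receptors Epha2 (fold 8.63) and Kit (fold 7.61), Mapk7, which encodes ERK5 (fold 8.08), the receptor substrate Eps8 (fold 17.1), the Ras inactivator Rasa4 (fold 9.10) and the kinase Fes (fold 5.05). DNA repair (6 members, median fold 7.86) was led by the endonuclease Apex2 (fold 36.5) and the fork-protection gene Mms22l (fold 29.6) and included the mismatch repair gene Pms1. Apoptosis and p53 pathway genes (5 members, median fold 7.23) included Bbc3, the gene of the BH3-only protein PUMA (fold 10.8), and Casp2 (fold 7.23). Ubiquitin-like conjugation genes were 6 members (median fold 6.13), led by the ligase gene Hace1 (fold 16.3).

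None of 6 mRNAs known from other work as TRIM71 targets was a member. The cell cycle inhibitor Cdkn1a had a fold of 0.70 (206.9 FPKM in the input), the semaphorin receptor Plxnb2 4.15 and the pocket protein gene Rbl1 0.98. Rbl2, the repressor E2f7 and the splicing regulator Mbnl1 had an IP value of 0, the last 2 at inputs of 0.8 and 0.5 FPKM, below the cutoff. The paper counted transcripts as bound at a fold above 3 with an input above 2 FPKM. Of the 6, only Plxnb2 passed that lower cutoff, at an input of 44.7 FPKM.

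For RNA-seq, 230 of the 249 members matched a gene by symbol, and 223 of these passed the filter of a mean above 0.2 FPKM over the 8 samples. A further 16 could be matched by identifier only, and Gm8017, Banp and Fanca by neither. Of the 230 symbol matches, 9 joined a gene listed under another identifier, Gm2694 among them. The 7 matched members that did not pass were 6 pseudogenes (Gm12341, Gm11826, Gm15793, Gm5621, Gm11185 and Rpl35a-ps2) and Snhg9, the last 2 listed at 0 in all samples. The filter is on the mean over all groups. Members had a median of 8.45 to 10.2 FPKM per sample, against 15.7 to 16.7 FPKM for the other transcripts above the input cutoff and 5.91 to 7.05 FPKM for all 15430 genes tested. Averaged over samples, 13 members were below 1 FPKM, 104 between 1 and 10, 99 between 10 and 100, and 7 above 100 FPKM.

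The targeted gene checks the knockout label. Gm2694 was at 5.70 and 9.45 FPKM in wild type and at 0.0754 and 0 FPKM in knockout in 2i + LIF. In PD + LIF it was at 6.18 and 6.56 FPKM in wild type and at 1.38 and 0.746 FPKM in knockout. The knockout samples were below both wild-type samples in each medium, with differences of log2(FPKM + 1) of -3.01 ± 0.23 (SE) and -1.85 ± 0.23 and limma Benjamini-Hochberg adjusted p of 0.00317 and 0.00535. The knockout level was higher in PD + LIF than in 2i + LIF (difference 0.98 ± 0.23, limma adjusted p 0.0105).

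RNA-seq was made in both media to ask what loss of Trincr1 changes in ESCs. In PD + LIF, 16 of 223 members were higher in knockout than in wild type (7.17%; background 6.29% of all genes tested) and 13 were lower (5.83%; background 5.77%). Calls are limma tests of log2(FPKM + 1) at a Benjamini-Hochberg adjusted p under 0.05 over all 15430 genes, and a difference on this scale understates the change of genes near 1 FPKM or below. The members' median difference was 0.015 and that of all genes 0.010. Both shares were near the background, and the quartiles of the difference were -0.16 and 0.18 in members and -0.16 and 0.17 in all genes. Leaving out a PD + LIF sample left 11 or 15 calls without wild-type replicate 1 or 2 and 8 or 19 without knockout replicate 1 or 2. In bulk RNA, fewer cells of a type and less RNA per cell cannot be told apart.

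Kit, the receptor for stem cell factor, showed the largest fall of a protein-coding member. It was at 54.2 and 54.7 FPKM in wild type and 52.3 and 58.7 FPKM in knockout in 2i + LIF, and at 18.8 and 14.9 FPKM in wild type and 6.06 and 5.90 FPKM in knockout in PD + LIF. The groups overlapped in 2i + LIF and were apart in PD + LIF, where the difference was -1.35 ± 0.11 (limma adjusted p 0.00188). The difference of the knockout effect between media was -1.37 ± 0.15 (limma adjusted p 0.0200).

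Nup210, a nuclear pore membrane protein, fell from 22 and 17.9 FPKM in wild type to 9.93 and 8.95 FPKM in knockout in PD + LIF, by 1.00 ± 0.11 on the log2 scale (limma adjusted p 0.00370). Cbs, an enzyme that makes cystathionine from homocysteine, was at 8.56 and 11.5 FPKM against 3.15 and 5.48 FPKM (-1.08 ± 0.23, limma adjusted p 0.0294). Camk1d, a calmodulin-dependent kinase, was at 4.13 and 4.82 FPKM against 1.86 and 2.82 FPKM (-0.72 ± 0.16, limma adjusted p 0.0288). The knockout samples were below both wild-type samples for each of the 3 genes. The Cbs and Camk1d calls were lost when the fit used only the 2 groups compared and when any of 5 of the 8 samples was left out, and all 3 genes were also lower in PD + LIF than in 2i + LIF in wild type.

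Of the other members lower in knockout, the receptor Epha2 went from 16.7 and 14.5 FPKM to 9.86 and 9.69 FPKM, and the cytosolic DNA sensor Aim2 from 32.0 and 30.7 FPKM to 22 and 23.5 FPKM. Falls were also seen for the lysosomal glucosidase Gaa, the forkhead factor Foxn2, the tRNA-modifying enzyme Cdkal1, Ypel2 and Gm10275, with differences from -0.25 to -0.53. Gm10275 is 100% identical to Rpl12 over their aligned bases, so reads cannot tell the pair apart there.

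Among members higher in knockout, Cxadr, a tight-junction adhesion protein, showed the largest difference. It was at 5.14 and 5.78 FPKM in wild type and 6.04 and 6.26 FPKM in knockout in 2i + LIF, and at 5.51 and 5.70 FPKM in wild type and 11.4 and 11.2 FPKM in knockout in PD + LIF. Only the knockout samples in PD + LIF were high (0.90 ± 0.09, limma adjusted p 0.00280; difference between media 0.75 ± 0.12, limma adjusted p 0.0384). Creb3, a transcription factor anchored in the endoplasmic reticulum, had the same shape of levels, at 7.41 and 6.95 FPKM in wild type and 11.6 and 11.2 FPKM in knockout in PD + LIF against 6.91 to 8.30 FPKM in 2i + LIF (difference between media 0.73 ± 0.12, limma adjusted p 0.0401).

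Gas2l1, which crosslinks actin and microtubules, was instead low in a single group. It was at 22.8 and 21.5 FPKM in wild type and 22.2 and 20.8 FPKM in knockout in 2i + LIF, and at 12.6 and 11 FPKM in wild type but 22.3 and 21.7 FPKM in knockout in PD + LIF. The difference in PD + LIF was 0.85 ± 0.08 (limma adjusted p 0.00270), and that between media 0.89 ± 0.11 (limma adjusted p 0.0267). Hspa5, the endoplasmic reticulum chaperone BiP, was at 217 and 217 FPKM and 206 and 190 FPKM in 2i + LIF, and at 127 and 132 FPKM in wild type and 186 and 172 FPKM in knockout in PD + LIF. Its knockout level in PD + LIF lay below all 4 samples in 2i + LIF and above both wild-type samples (0.46 ± 0.05, limma adjusted p 0.00423; difference between media 0.60 ± 0.08, limma adjusted p 0.0272).

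Vim, the gene of vimentin, was at 72.4 and 95.8 FPKM in wild type and 150 and 132 FPKM in knockout in PD + LIF (0.75 ± 0.12, limma adjusted p 0.0122, but 0.0891 without knockout replicate 1). In 2i + LIF it was at 187 and 188 FPKM and 243 and 256 FPKM, a difference of 0.41 ± 0.12 that did not pass the test. Fhl3, a LIM-domain cofactor, was at 7.61 and 7.69 FPKM against 14.4 and 12 FPKM (0.71 ± 0.10, limma adjusted p 0.00811, but 0.0532 without wild-type replicate 1 and 0.0504 without knockout replicate 1), and the ubiquitin-domain gene Ubtd2 at 10.5 and 8.89 FPKM against 19.7 and 15 FPKM (0.77 ± 0.14, limma adjusted p 0.0187). The Ubtd2 call was lost with only the 2 groups in the fit, and without wild-type replicate 1 (limma adjusted p 0.0592), wild-type replicate 2 (0.0923) or knockout replicate 1 (0.0957). Among the most enriched members, Sufu was higher in knockout, at 7.16 and 7.44 FPKM against 10.4 and 10.8 FPKM (0.48 ± 0.08, limma adjusted p 0.0154), as was Apex2, at 6.2 and 5.39 FPKM against 8.47 and 8.78 FPKM. The other 7 were Bin1, Eps8, Dvl3, Mfn2, Erc1, Srprb and Mapk7, with differences from 0.25 to 0.65.

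The other most enriched members did not pass the test between genotypes in PD + LIF. Lars2 was at 70.3 and 73.8 FPKM in wild type and 75.3 and 112 FPKM in knockout (limma adjusted p 0.234), Camsap1 at 14.9 and 13.7 FPKM against 14.3 and 14.9 FPKM (limma adjusted p 0.906), and Vangl2 at 9.23 and 8.78 FPKM against 12.6 and 10.7 FPKM (limma adjusted p 0.0714). Gphn was at 2.63 and 2.65 FPKM against 1.96 and 1.89 FPKM, with limma adjusted p 0.149 although the groups did not overlap. Dusp7 was at 7.85 and 7.60 FPKM against 8.21 and 7.21 FPKM, with overlapping groups.

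By list, the PD + LIF calls between genotypes were few, beside 6.29% higher and 5.77% lower of all genes. The small GTPase and cytoskeleton list had 4 higher and 0 lower of 26 (Bin1, Erc1, Gas2l1 and Vim; median difference 0.03 against 0.01 over all genes), the receptor tyrosine kinase and MAPK list 2 higher and 2 lower of 8, and the Hedgehog, polarity, Wnt and Notch list 2 higher (Sufu and Dvl3) of 6. The mitochondrial list had 1 higher and 2 lower of 22, and chromatin 1 higher and 1 lower of 25 tested. The ribosomal protein list, RNA processing, transporter and apoptosis lists had no call of either direction by limma. The ribosomal protein list leaves out copies with a Gm name. Of these, the Rpl12 copy Gm10275 was called lower, as given above. The lists were made from members, so these counts are descriptions.

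In 2i + LIF, 1 of 223 members was higher in knockout (0.448%; background 0.350% of all genes) and 2 were lower (0.897%; background 0.855%). Serping1, the C1 protease inhibitor, was at 6.45 and 4.85 FPKM in wild type and 11.1 and 11.1 FPKM in knockout (0.88 ± 0.12, limma adjusted p 0.0229), and between 12.1 and 13.2 FPKM in all 4 samples in PD + LIF. Tmem102, a transmembrane protein gene, was at 6.69 and 6.15 FPKM against 3.43 and 4.03 FPKM (-0.65 ± 0.11, limma adjusted p 0.0419). Gm2694 was the other member lower. The median difference of members was 0.029 and of all genes 0.002. The Serping1 call was lost when any of 7 of the 8 samples was left out, and the Tmem102 call when any of the 8 was.

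The knockout effect differed between media for 6 of 223 members. It was more positive in PD + LIF for 4 (1.79%; background 0.992%), namely Gas2l1, Cxadr, Creb3 and Hspa5, and more negative for 2 (0.897%; background 0.817%), namely Kit and Aim2. Aim2 was at 57.7 and 60.5 FPKM in wild type and 58.0 and 59.5 FPKM in knockout in 2i + LIF, where the groups overlapped (difference between media -0.44 ± 0.08, limma adjusted p 0.0463). With 1 sample left out at a time the number called ran from 0 to 3 of 223.

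**Figure D4:**
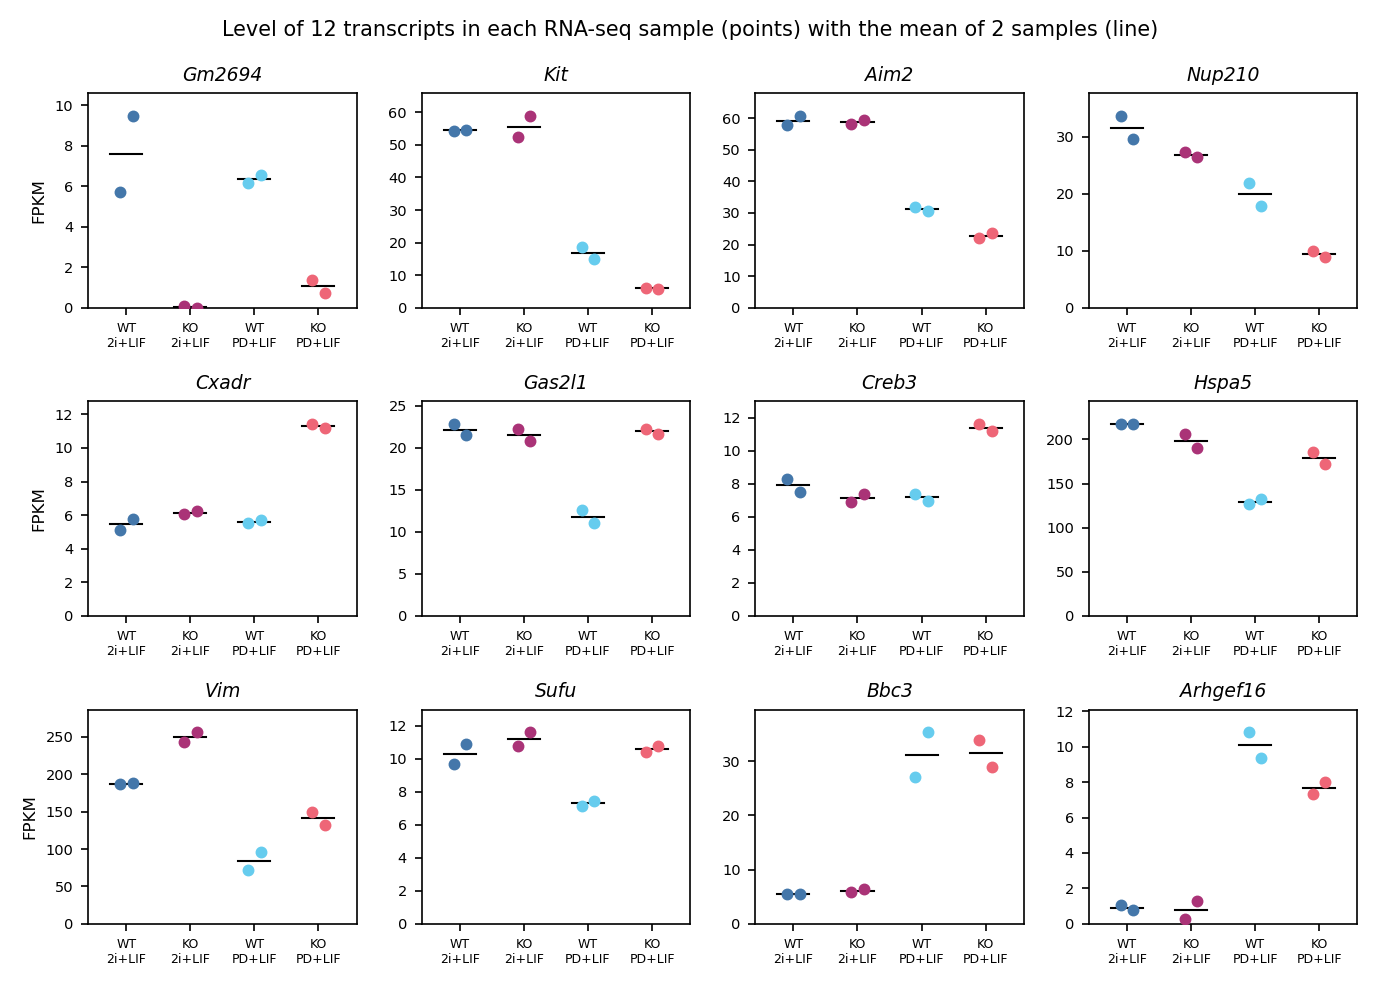
RNA-seq level (y axis, FPKM, linear from 0) of 12 enriched transcripts in each of 8 samples; each point is 1 sample, colored by group, and a black line marks the mean of 2 samples. Gm2694 is low in knockout in both media, Cxadr and Creb3 are high only in knockout in PD + LIF, and Bbc3 and Arhgef16 are high in PD + LIF in both genotypes.

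Withdrawal of CHIR99021 moved many more members. In wild type, 61 of 223 were higher in PD + LIF than in 2i + LIF (27.4%; background 30.9% of all genes) and 50 were lower (22.4%; background 21.3%), with a median difference of 0.026 against 0.076 for all genes. In knockout, 57 were higher (25.6%; background 29.6%) and 50 lower (22.4%; background 20.3%), with a median of 0.079 against 0.071. The split depended on scaling. With quantile normalization, which moved the median of all genes from 0.076 to -0.024 in wild type and from 0.071 to -0.035 in knockout, members were 48 higher and 70 lower in wild type and 49 higher and 64 lower in knockout (all genes 3803 and 3946, and 3578 and 3838). The summed ESC, epiblast and neural markers moved with the medium as given above, and their part in these differences was not tested. The medium and genotype comparisons share samples, so their values are not independent of each other.

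The members with the largest rises were the same 5 in both genotypes, ranked within each. Arhgef16, an activator of small GTPases, went from 1.05 and 0.770 FPKM to 10.8 and 9.37 FPKM in wild type and from 0.290 and 1.29 FPKM to 7.30 and 7.99 FPKM in knockout. Bbc3 went from 5.58 and 5.53 FPKM to 27 and 35.3 FPKM in wild type and from 5.80 and 6.46 FPKM to 33.9 and 29.0 FPKM in knockout. In both genes every PD + LIF sample was above every 2i + LIF sample, with differences in wild type of 2.54 ± 0.25 and 2.28 ± 0.13 (limma adjusted p 0.000188 and 2.04e-05).

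Gpsm1, a modulator of G-protein signaling, went from 0.730 and 0.586 FPKM to 6.94 and 6.97 FPKM in wild type and from 1.04 and 0.688 FPKM to 9.67 and 10 FPKM in knockout. Phldb1, a membrane-binding protein of the cell cortex, went from 2.22 and 4.48 FPKM to 17.7 and 12.8 FPKM and from 3.43 and 2.98 FPKM to 31.5 and 26.3 FPKM. Efs, an adaptor of Src-family kinases, went from 3.62 and 3.70 FPKM to 17.1 and 18.6 FPKM and from 3.29 and 3.25 FPKM to 14.9 and 16.1 FPKM. The 2 groups of each genotype did not overlap for any of them, and in knockout the differences were 2.55 ± 0.13, 2.83 ± 0.26 and 1.95 ± 0.09 (limma adjusted p 9.08e-06, 0.000118 and 5.6e-06).

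Among the most enriched members, Camsap1 and Dusp7 were higher in PD + LIF in both genotypes. Camsap1 went from 11.4 and 10.1 FPKM to 14.9 and 13.7 FPKM in wild type (0.38 ± 0.09, limma adjusted p 0.0117), and Dusp7 from 4.71 and 4.45 FPKM to 7.85 and 7.60 FPKM (0.65 ± 0.10, limma adjusted p 0.00139). Phyhd1 went from 4.84 and 4.10 FPKM to 3.66 and 2.56 FPKM in wild type, which did not pass (limma adjusted p 0.0545), and from 4.05 and 4.69 FPKM to 2.30 and 2.40 FPKM in knockout, which did (-0.68 ± 0.16, limma adjusted p 0.00915).

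The falls were led by Kit in both genotypes, by 1.64 ± 0.11 in wild type and by 3.01 ± 0.11 in knockout on the log2 scale (limma adjusted p 2.97e-05 and 2.88e-06). In wild type D16Ertd472e followed, from 12.8 and 14 FPKM to 3.17 and 5.48 FPKM, then the vitamin transporter Slc5a6, from 20.5 and 18.2 FPKM to 7.77 and 5.43 FPKM, Vim, and the lysosomal membrane protein Laptm5, from 55.3 and 59.0 FPKM to 25.5 and 29.3 FPKM. In knockout Cbs, Nup210, Camk1d and Aim2 followed Kit, with differences of -1.57 ± 0.23, -1.42 ± 0.11, -1.41 ± 0.16 and -1.33 ± 0.06. Cbs went from 12.5 and 16.5 FPKM to 3.15 and 5.48 FPKM there, and Nup210 from 27.3 and 26.5 FPKM to 9.93 and 8.95 FPKM.

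By list, the counts in wild type stand beside 30.9% higher and 21.3% lower of all genes, and those in knockout beside 29.6% and 20.3%. The small GTPase and cytoskeleton genes had 12 higher and 3 lower of 26 in wild type (median 0.35 against 0.08 for all genes), and 9 higher and 2 lower in knockout (median 0.10 against 0.07). Those higher in wild type included Myh9, from 54.8 and 55.6 FPKM to 114 and 114 FPKM, and the endocytic GTPase Dnm1, from 0.554 and 0.669 FPKM to 5.30 and 4.80 FPKM. Chromatin and transcription genes had 10 higher and 6 lower of 25 in wild type and 11 and 6 in knockout, with Klf11, a zinc finger factor, going from 5.47 and 5.34 FPKM to 10.7 and 10.4 FPKM and Aff1 from 28.2 and 30.7 FPKM to 13.3 and 14.5 FPKM in wild type. RNA processing genes had 1 higher and 5 lower of 9 in wild type but 2 and 2 in knockout. Mettl3 was among those lower in wild type, at 21.1 and 24.1 FPKM against 19.4 and 18.8 FPKM. Mitochondrial genes had 5 higher and 6 lower of 22 in wild type and 5 and 7 in knockout, with Cpt2 from 4.47 and 5.10 FPKM to 13.3 and 12.2 FPKM and the ATP synthase subunit gene Atp5k from 317 and 329 FPKM to 174 and 186 FPKM in wild type. Transporters had 2 higher and 4 lower of 13 and DNA repair genes 0 higher and 2 lower of 5 in each genotype. Apoptosis genes had 2 higher and 1 lower of 5 in wild type and 1 and 1 in knockout, and ubiquitin-like conjugation genes 2 higher and 2 lower of 6 in wild type and 3 and 1 in knockout, with the SUMO-activating subunit Uba2 from 194 and 195 FPKM to 121 and 124 FPKM in wild type.

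The ribosomal protein list of 14 tested members, all but Rps10 and Rpl3l pseudogenes, had in wild type 1 higher (Rps10, from 1090 and 1090 FPKM to 1210 and 1250 FPKM) and 1 lower (Rps19-ps1, from 3.75 and 3.09 FPKM to 2.29 and 0.777 FPKM), and in knockout 1 higher and 3 lower. Rps19-ps2, the twin of Rps19-ps1, did not pass in wild type, at 3.75 and 2.32 FPKM against 2.29 and 0.777 FPKM, and had the same listed value as Rps19-ps1 in 3 of these 4 samples. Ribosomal protein copies with a Gm name are not on the ribosomal protein list. Over all 25 tested pseudogenes the medium calls in wild type were 2 higher and 4 lower, and in knockout 2 higher and 5 lower. These stand against the same shares of all genes (30.9% and 21.3%, and 29.6% and 20.3%). Of the noncoding members other than Gm2694, none was called in wild type by limma, and Gm17586 was lower in PD + LIF in knockout (-0.38 ± 0.12, limma adjusted p 0.0375). 5430416N02Rik was at 14.5 to 20.2 FPKM, 9930104L06Rik at 5.32 to 14.4 FPKM and Gm17586 at 2.82 to 4.81 FPKM over the 8 samples.

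**Figure D5:**
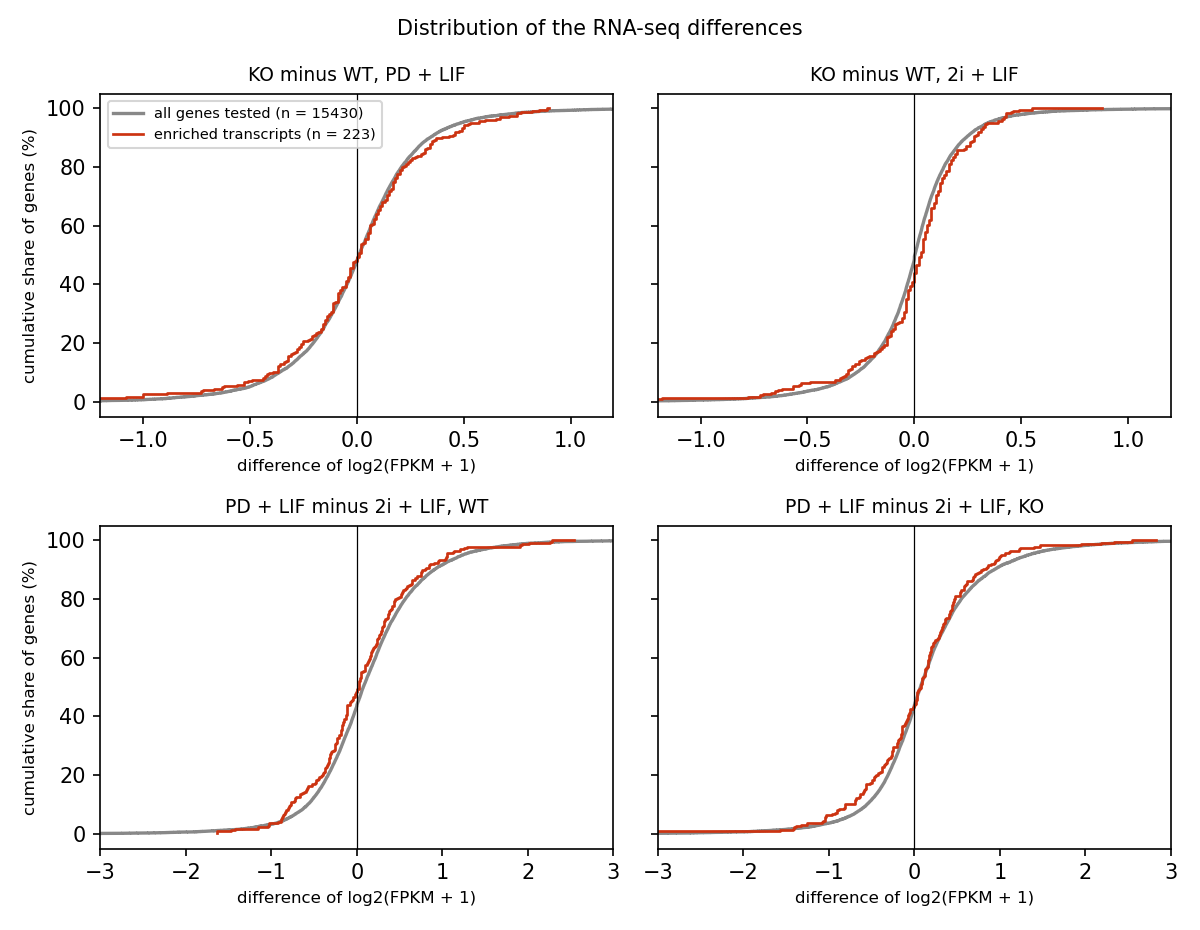
Cumulative share of genes (y axis, percent) by difference of log2(FPKM + 1) (x axis) in 4 comparisons, for the 223 members tested (red) and all 15430 genes tested (gray). The curves lie close together in the PD + LIF genotype comparison, where the medians are 0.015 and 0.010, and the red curve lies left of the gray over most of its range in the wild-type medium comparison (medians 0.026 and 0.076).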

How the data were processed

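The authors aligned reads to mm9 with STAR 2.5.0 and a GENCODE annotation and computed FPKM with Cufflinks 2.2.1. The RNA-seq table holds FPKM values as deposited, 1 column per sample, although its coordinates match GRCm38 (94.6% of 19970 genes end within 5 kb of the annotated end, 5.92% with NCBIM37), so none were printed from it. The pulldown table holds 1 deposited FPKM value each for input and IP, without saying how samples were combined, and the authors' scaled values, a normalized signal. A further column held the authors' own fold and was not used. No empty-vector column was analysed here.

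Genes with a mean above 0.2 FPKM over 8 samples (15430) were tested with limma 3.58.1 in R 4.3.3, with a trended variance, on log2(FPKM + 1), in a fit of 4 groups, with Benjamini-Hochberg adjustment over all genes and a threshold of 0.05. On simulated data for knockout against wild type in PD + LIF over 15430 genes, 192 of 200 genes changed by 1.5 on the log2 scale were recovered. There were 11 false calls, and 0 calls in a contrast without change. The 200 changed genes were drawn only from those of higher level. Their change was larger than the PD + LIF genotype difference of any protein-coding member called. The simulation therefore does not measure recovery of smaller changes or of genes at low levels. Fragment numbers came from the smallest FPKM steps of short pseudogenes, and the precision they give is that of few fragments at low levels. Transcripts, exons, repeated 31-base words, pseudogene parents and hairpins were read from GENCODE M1 on NCBIM37, and pairs were aligned with Biopython 1.88.

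Named genes are the 12 members of highest fold, those of the functional lists, the 5 largest rises and falls per contrast among called members whose replicates do not overlap, the 3 transcripts on each side of the cutoff, noncoding members, Trim71 and Gm2694. Other called members, members with an input above 100 FPKM and the parents of the pseudogenes were named after their values were seen. Members and lists were chosen with earlier results of these data known. Alternatives were another pseudocount, filters, normalization, variance model, replicate block, samples in the fit, samples left out, fold and input cutoffs, IP scaling and matching by identifier. Some members are not reported here by name.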

Additional observations from a re-analysis of the deposited data

Results flagged for a closer look

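The knockout effect differed between PD + LIF and 2i + LIF for 6 enriched transcripts (2.69% of those tested, against 1.81% of all genes), by the interaction term of the limma fit with Benjamini-Hochberg adjustment over all genes. The difference of log2(FPKM + 1) was -1.37 for Kit (limma adjusted p 0.0200), 0.89 for Gas2l1 (0.0267), 0.60 for Hspa5 (0.0272), 0.75 for Cxadr (0.0384), 0.73 for Creb3 (0.0401) and -0.44 for Aim2 (0.0463). In all 6, both knockout samples lay apart from both wild-type samples in PD + LIF. The calls for Kit and Gas2l1 were lost when any of 6 of the 8 samples was left out, and those for the other 4 when any of the 8 was.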

How the results depend on the processing

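No direction reversed among the values of the 39 named results under any alternative, 646 kept and 98 lost their call, 75 of these with a sample left out. Knockout against wild type in PD + LIF called 29 members, 15 with only the 2 groups in the fit, 59 of 454 at a fold above 3, 6 of 83 at a fold above 10, and 8 to 24 with a sample left out (11 without wild-type replicate 1, 15 without wild-type replicate 2, 8 without knockout replicate 1 and 19 without knockout replicate 2 in PD + LIF). In 2i + LIF 3 were called, 1 with only the 2 groups, 7 at a fold above 3, and 1 to 2 with a sample left out. The difference between media called 6 (4 without a filter on low values), but 2 without a variance trend, 0 at a fold above 10, and 0 to 3 with a sample left out. The medium comparisons called 111 in wild type (241 at a fold above 3, 32 above 10, 83 to 110 with a sample left out) and 107 in knockout (221, 33, and 90 to 104). The cause of these changes was not tested beyond the members included and the samples used.

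Replicate numbers did not pair the samples (correlations of deviations from -0.054 to 0.006). With the replicate number as a block, the calls were 21, 2, 2, 106 and 102 in the same order. Members numbered 249 under the authors' scaling, 422 with both libraries scaled to the same mean, 606 with the 100 highest transcripts left out of that mean, and 158 at an input above 5 FPKM. RNA-seq minus input was 0.17, and 0.13 to 0.17 from a single wild-type sample. After seeing the data, matching by symbol or identifier and leaving out pseudogenes were added. They gave 31 and 28 calls in PD + LIF and moved no count by over 1.5 times. With 2 samples a group, low FPKM values rest on few fragments.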
